A study of Mus musculus with 42 samples.

Results

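The MiT/TFE family of the mouse consists of the transcription factor genes Tfeb, Tfe3, Mitf and Tfec. The 4 members were taken by gene symbol from the read count and FPKM tables of a series of whole-kidney RNA-seq libraries. FPKM is the number of fragments scaled to exon length and to a library size. All 4 were found among the 54532 listed genes, and all 4 passed the filter on low counts in each of the 3 cohorts of mice.

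The series holds 42 libraries, each from the kidney of a separate mouse on the C57BL/6 background, in 14 groups of 3. The CaggCreERT2 cohort, in which a tamoxifen-inducible Cre acts in the whole body, was given tamoxifen through the lactating mothers in the first days of life and was examined at postnatal day 30. It holds controls, Tsc2 KO (CaggCreERT2+ with Tsc2 fl/fl), Tfeb KO (CaggCreERT2+ with Tfeb fl/fl) and a double knockout of both genes (DKO). The KspCre cohort, in which the promoter of the Cdh16 gene restricts Cre to kidney tubular epithelium, holds the same 4 genotypes at postnatal day 50. A separate KspCre cohort of the same age holds controls, Tsc2 KO and DKO mice, each given either vehicle or rapamycin at 1 mg/kg by intraperitoneal injection, 3 times per week for 11 injections. The labels call the controls wild type and the cell type mixed, and the study's figure legends describe the KspCre controls as Cre-negative. For RNA sequencing in the CaggCreERT2 cohort the study names Cre-positive, tamoxifen-exposed controls with wild-type Tsc2.

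MiT/TFE proteins are basic helix-loop-helix leucine zipper factors that bind E-box sequences as homodimers or as heterodimers with each other, and they switch on genes of lysosomes and autophagy. The kinase complex mTORC1, which the TSC1-TSC2 complex holds in check through the GTPase Rheb and which rapamycin inhibits in part, phosphorylates TFEB and TFE3 when Rag GTPases bring them to the lysosome, and the phosphorylated proteins are kept in the cytoplasm by 14-3-3 proteins. Because this control acts on the protein, an mRNA level is not a measure of the activity of these factors. The study states that cells lacking TSC1 or TSC2 differ, with both factors underphosphorylated at their mTORC1 sites and nuclear. In TSC2-deficient cells it reports that rapamycin raised the phosphorylation of TFEB at such a site.

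Library depth ranged from 14926050 to 22807605 counts. In the CaggCreERT2 cohort 4 of 12 libraries were named differently by the count table and the FPKM table, 2 of them with different genotypes, and the FPKM table's names were kept. Tsc2, the targeted gene, read 9.05 to 10.6 FPKM in the CaggCreERT2 controls and Tfeb KO libraries and 4.06 to 5.64 FPKM in Tsc2 KO and DKO libraries. These ranges were 6.86 to 9.88 and 3.54 to 5.81 FPKM in the KspCre cohort, and in the drug cohort controls read 8.18 to 9.81 against 3.80 to 6.50 FPKM in the Tsc2-deleted groups. The pair of libraries with different genotypes, Tfeb KO 3 and DKO 1 by the FPKM table, read 10.2 and 5.26 FPKM of Tsc2, each among its group by those names, so that Tsc2 goes against the genotypes in the count table. By sex-linked transcripts the CaggCreERT2 control libraries were 3 males, Tfeb KO 3 females, Tsc2 KO 2 females and 1 male, and DKO 1 female and 2 males, whereas the libraries of both KspCre cohorts were all female. Transcripts of the adrenal cortex, a gland that lies on the kidney, summed to 34.4 and 282 FPKM in 2 CaggCreERT2 Tfeb KO libraries and to 51.6, 1430, 310 and 4310 FPKM in 2 Tsc2 KO and 2 DKO libraries given vehicle, against 0.816 to 2.43 FPKM elsewhere.

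Every library contained transcripts of all 4 family members. Over the 42 libraries Tfeb ranged from 1.99 to 8.33 FPKM with a median of 4.52, and Tfe3 from 2.56 to 5.56 FPKM with a median of 3.63. Mitf ranged from 2.42 to 5.49 FPKM with a median of 3.44, and Tfec from 1.05 to 6.05 FPKM with a median of 2.44. Tfeb had the highest FPKM of the 4 in 24 of 42 libraries, Tfe3 in 9, Mitf in 6 and Tfec in 3. These levels rested on 116 to 980 counts per gene and library, so that counting error alone gave a coefficient of variation of 3.19% at the highest of these counts and 9.28% at the lowest. The tables of the 3 cohorts were normalized separately, so levels set across cohorts are a description.

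The genes lie on 3 chromosomes of the GRCm38 (mm10) assembly. Tfeb (ENSMUSG00000023990) spans chr17:47737030-47792419 on the plus strand with 5669 exonic bases, and Tfe3 (ENSMUSG00000000134) spans chrX:7762560-7775202 on the plus strand with 9261 exonic bases. Mitf (ENSMUSG00000035158) spans chr6:97807052-98021349 on the plus strand with 6196 exonic bases, and Tfec (ENSMUSG00000029553) spans chr6:16833373-16898441 on the minus strand with 5594 exonic bases. Counts were summed over all exons of a gene, so the alternative promoters of Mitf, the best known of which serves pigment cells, cannot be told apart, and Tfeb counts include exons outside the deleted part. The sources used here do not name the deleted Tfeb exons.

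Promoter windows were read from RefSeq on GRCm38.p6, from 250 bases before to 50 bases after each annotated start, and 9 windows were found for the 4 members. They were searched on both strands for the E-box CACGTG, for TCACGTG, which is the E-box with a 5′ T as in lysosomal genes and always overlaps it, for CATGTG and for TCATGTG. None of these motifs was found in any of the 9 member windows. Among all 32851 windows of this length, 7.15% held CACGTG, 3.77% TCACGTG, 14.2% CATGTG and 3.77% TCATGTG. Shown first are both windows of Tfe3, the member that rose after Tsc2 deletion in each cohort, and the window of Tfec, which rose in the CaggCreERT2 cohort. The window of Rragc, a target gene that also encodes a Rag GTPase acting on these factors, is shown for contrast, with TCACGTG as read on the opposite strand (CACGTGA) in capitals. This motif begins 112 bases before the start of Rragc.

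Tfe3, window 1 (chrX:7762411-7762710, plus strand): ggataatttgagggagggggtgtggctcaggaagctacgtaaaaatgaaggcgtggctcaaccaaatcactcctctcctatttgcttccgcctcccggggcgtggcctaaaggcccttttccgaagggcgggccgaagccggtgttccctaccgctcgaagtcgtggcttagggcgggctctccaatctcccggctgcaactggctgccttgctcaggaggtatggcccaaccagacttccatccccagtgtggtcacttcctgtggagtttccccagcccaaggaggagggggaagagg

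Tfe3, window 2 (chrX:7763693-7763992, plus strand): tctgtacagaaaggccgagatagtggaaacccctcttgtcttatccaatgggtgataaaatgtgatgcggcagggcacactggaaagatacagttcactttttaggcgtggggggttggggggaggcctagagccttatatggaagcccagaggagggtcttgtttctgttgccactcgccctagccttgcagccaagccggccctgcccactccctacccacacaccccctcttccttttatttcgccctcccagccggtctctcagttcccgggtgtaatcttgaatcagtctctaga

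Tfec (chr6:16898392-16898691, minus strand): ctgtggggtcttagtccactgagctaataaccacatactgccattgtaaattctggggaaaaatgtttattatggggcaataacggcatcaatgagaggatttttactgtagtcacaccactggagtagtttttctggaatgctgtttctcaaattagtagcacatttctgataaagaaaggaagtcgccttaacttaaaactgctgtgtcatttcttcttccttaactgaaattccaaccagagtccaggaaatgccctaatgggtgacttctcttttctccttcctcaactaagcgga

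Rragc (chr4:123917183-123917482, plus strand): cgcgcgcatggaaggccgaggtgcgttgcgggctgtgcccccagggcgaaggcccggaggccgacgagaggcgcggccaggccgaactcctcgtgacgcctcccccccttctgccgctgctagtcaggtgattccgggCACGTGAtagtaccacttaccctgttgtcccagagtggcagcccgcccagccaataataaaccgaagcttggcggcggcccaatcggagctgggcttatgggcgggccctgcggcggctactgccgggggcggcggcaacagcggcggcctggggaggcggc

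**Figure D1:**
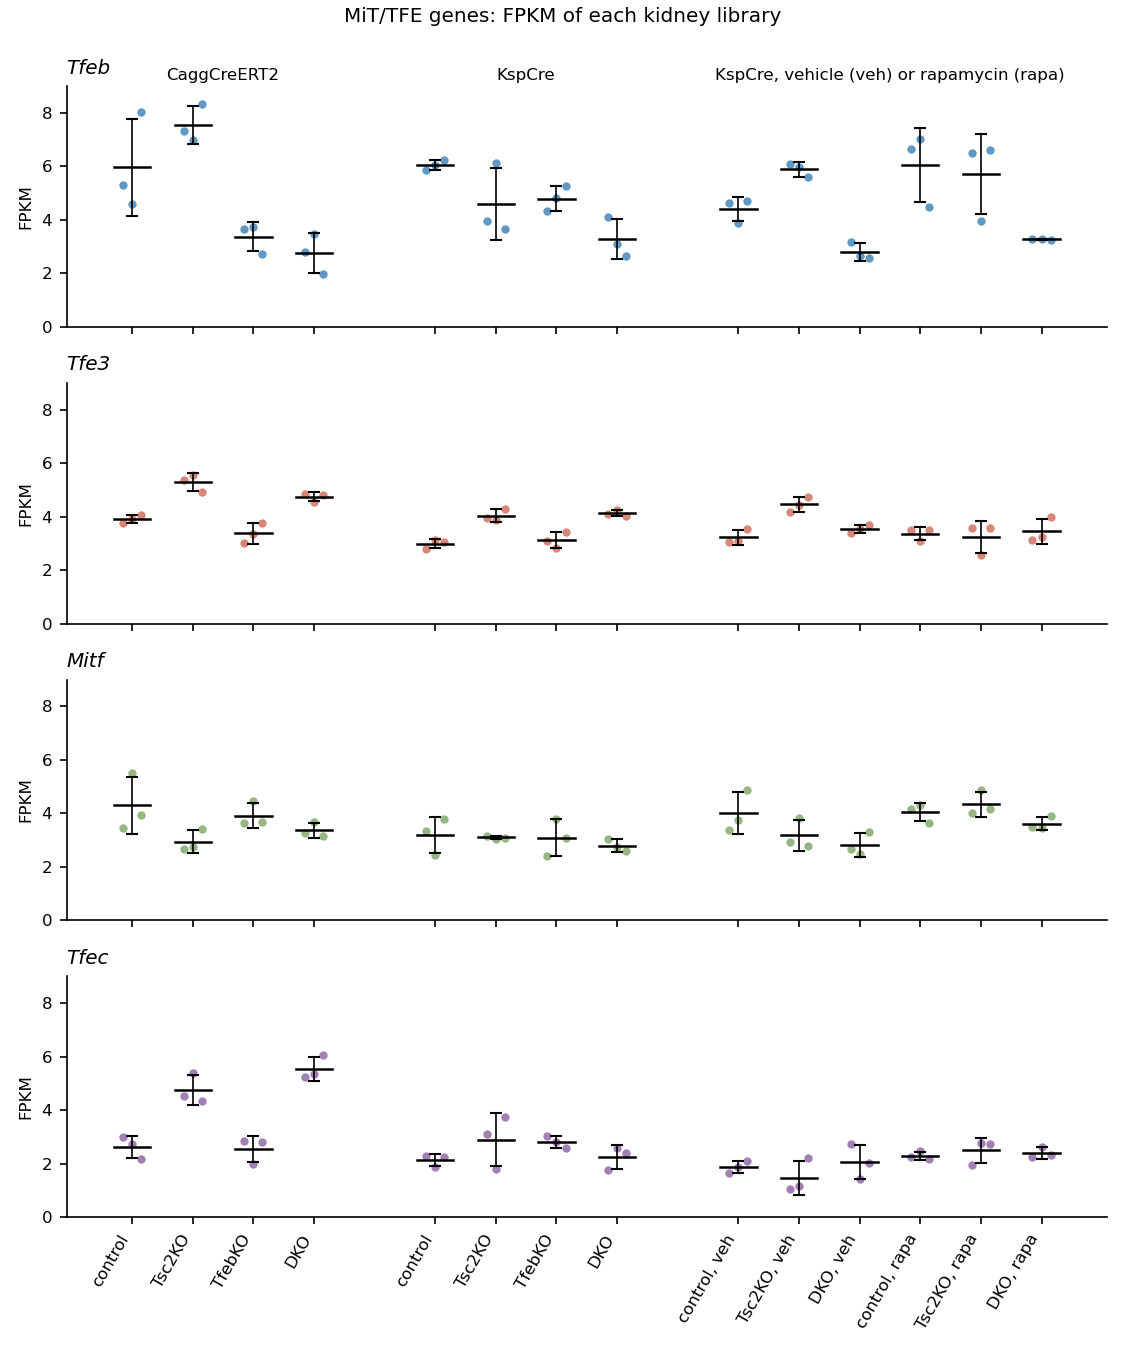
FPKM of Tfeb, Tfe3, Mitf and Tfec in each of the 42 libraries, by group and cohort, with points for single mice and lines for the group mean ± SD (n = 3). Tfe3 in the untreated or vehicle Tsc2 KO libraries lies between 3.87 and 5.56 FPKM, above the controls of the same cohort, and Tfeb is lowest in a DKO group of each cohort.

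Tfeb, the member that the study deleted, was measured first. In the CaggCreERT2 cohort the control libraries read 5.30, 4.57 and 8.02 FPKM and the Tfeb KO libraries 3.64, 3.73 and 2.73 FPKM. The Tsc2 KO libraries read 7.32, 6.98 and 8.33 FPKM and the DKO libraries 2.80, 3.48 and 1.99 FPKM. Each Tfeb KO and DKO library was below each library with intact Tfeb, while the controls spread widely and overlapped with Tsc2 KO. Tfeb was lower in DKO than in Tsc2 KO by 1.48 on the log2 scale (log2 fold change -1.48, SE 0.23, adjusted p = 0.00325 from the quasi-likelihood F test of edgeR, Benjamini-Hochberg adjusted over all genes tested), a fold of 0.36. Against control it was also lower in DKO (log2 fold change -1.08, SE 0.23, adjusted p = 0.0111), a call that held without the 2 libraries named in conflict (-1.09, adjusted p = 0.0466) and was lost under the count-table names, which Tsc2 goes against (-1.09, adjusted p = 0.398). The CaggCreERT2 controls were 3 males and the Tfeb KO mice 3 females, so genotype and sex cannot be told apart in Tfeb KO against control. In that comparison the log2 fold change was -0.80 (95% confidence interval -1.31 to -0.30), with an unadjusted p = 0.00439 that did not pass adjustment (adjusted p = 0.394). Without the filter on low counts, in a fit of all genes with any read, this adjusted p became 0.00464. Tsc2 KO against control gave 0.40 (interval -0.09 to 0.89, adjusted p = 0.21), which became 0.68 with an adjusted p of 0.0466 without control 3.

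The KspCre controls read 5.85, 6.05 and 6.24 FPKM of Tfeb and the Tfeb KO libraries 4.32, 4.80 and 5.25 FPKM. The Tsc2 KO libraries read 3.96, 6.12 and 3.66 FPKM and the DKO libraries 4.09, 3.08 and 2.65 FPKM. Tfeb KO and DKO libraries were all below the controls, whereas Tsc2 KO libraries overlapped with every other group. Tfeb was lower in DKO than in control (log2 fold change -0.88, SE 0.20, adjusted p = 0.041), a call lost in 5 of 6 fits that left out 1 library (all except DKO 1; adjusted p up to 0.124). The change from Tsc2 KO to DKO was -0.48 (interval -0.92 to -0.03, adjusted p = 0.36), and -0.21 with an adjusted p of 0.731 without Tsc2 KO 2. Tfeb KO against control gave -0.33 (interval -0.78 to 0.11, adjusted p = 0.627). Tsc2 KO against control gave -0.41 (interval -0.85 to 0.04, adjusted p = 0.223), and -0.67 with an adjusted p of 0.0429 without Tsc2 KO 2.

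In the drug cohort the vehicle controls read 4.64, 3.89 and 4.70 FPKM of Tfeb, the vehicle Tsc2 KO libraries 6.09, 5.98 and 5.58 FPKM and the vehicle DKO libraries 3.18, 2.65 and 2.57 FPKM. These groups did not overlap. DKO was below Tsc2 KO (log2 fold change -1.07, SE 0.19, adjusted p = 0.000667) and below control (log2 fold change -0.66, SE 0.19, adjusted p = 0.0466), and the latter call was lost in 6 of 6 fits that left out 1 library (adjusted p 0.0553 to 0.143). Tsc2 KO exceeded control by 0.42 (interval 0.03 to 0.80), which did not pass adjustment (adjusted p = 0.083). Without the 4 libraries that held adrenal transcripts, 1 library was left in each of those vehicle groups. DKO against Tsc2 KO was then -1.12, and 1 library per group cannot show whether the call held.

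Tfe3, the close relative of Tfeb that is regulated by the same kinase, was higher in Tsc2 KO than in control in each of the 3 cohorts. In the CaggCreERT2 cohort the controls read 3.77, 3.91 and 4.07 FPKM and the Tsc2 KO libraries 5.38, 5.56 and 4.91 FPKM. The Tfeb KO libraries read 3.01, 3.35 and 3.78 FPKM and the DKO libraries 4.86, 4.55 and 4.82 FPKM. The Tsc2 KO libraries were highest, the DKO libraries lay between them and the controls without overlap, and the Tfeb KO libraries overlapped with the controls. Tfe3 rose 1.41-fold in Tsc2 KO (log2 fold change 0.49, SE 0.10, adjusted p = 0.00381), and the adjusted p stayed at or below 0.0223 whichever library was left out. It held without the 2 libraries named in conflict (adjusted p = 0.00404). Under the count-table names, which rename no library of either group, the change stayed at 0.49 with an adjusted p of 0.0597. DKO against control gave 0.31 (interval 0.09 to 0.54, adjusted p = 0.0768), which passed the threshold without Tfeb KO 1 and 2 (adjusted p = 0.0497), the libraries with adrenal transcripts. From Tsc2 KO to DKO the change was -0.18 (interval -0.40 to 0.04, adjusted p = 0.293). Because the controls were male and 2 Tsc2 KO mice were female, Tfe3 was also compared within males, where the single Tsc2 KO library read 5.56 FPKM against 3.77 to 4.07 FPKM in controls, and with sex as a covariate (log2 fold change 0.52, adjusted p = 0.0175).

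The KspCre controls read 2.79, 3.12 and 3.05 FPKM of Tfe3 and the Tsc2 KO libraries 3.93, 3.87 and 4.30 FPKM. The Tfeb KO libraries read 3.10, 2.81 and 3.42 FPKM and the DKO libraries 4.10, 4.25 and 4.03 FPKM. The groups with deleted Tsc2 lay above both groups with intact Tsc2, and DKO overlapped with Tsc2 KO. Tfe3 rose 1.35-fold in Tsc2 KO (log2 fold change 0.43, SE 0.11, adjusted p = 0.0198), a call lost in 3 of 6 fits that left out 1 library (control 1, Tsc2 KO 1 or Tsc2 KO 3; adjusted p up to 0.0804). In DKO it rose 1.38-fold against control (log2 fold change 0.47, SE 0.11, adjusted p = 0.0389), a call lost in 6 of 6 such fits (adjusted p 0.0828 to 0.171). DKO differed from Tsc2 KO by 0.04 (interval -0.20 to 0.27, adjusted p = 0.937).

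Vehicle controls of the drug cohort read 3.04, 3.07 and 3.54 FPKM of Tfe3, vehicle Tsc2 KO libraries 4.18, 4.44 and 4.74 FPKM and vehicle DKO libraries 3.37, 3.54 and 3.68 FPKM. The Tsc2 KO libraries stood above both other groups, which overlapped. Tfe3 rose 1.38-fold in Tsc2 KO (log2 fold change 0.47, SE 0.13, adjusted p = 0.01), and leaving out any 1 library kept the adjusted p at or below 0.0409. DKO against Tsc2 KO gave -0.34 (interval -0.61 to -0.06, adjusted p = 0.0791), which passed the threshold when these 2 groups were fitted alone or with the replicate block. DKO against control gave 0.13 (interval -0.15 to 0.41, adjusted p = 0.574). Without the 4 libraries with adrenal transcripts, which leaves 1 vehicle Tsc2 KO library, Tsc2 KO against control was 0.55. That 1 library cannot show whether the call held.

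Mitf, known for driving pigment cells, mast cells and osteoclasts, was called in no comparison of genotypes by edgeR as fitted here, with all libraries and the filter on low counts. In the CaggCreERT2 cohort the controls read 3.46, 5.49 and 3.95 FPKM and the Tsc2 KO libraries 2.65, 2.75 and 3.42 FPKM. The Tfeb KO libraries read 3.63, 4.45 and 3.66 FPKM and the DKO libraries 3.27, 3.68 and 3.16 FPKM. Each Tsc2 KO library was below each control, with control 2 far above the others. The log2 fold change in Tsc2 KO was -0.49 (interval -0.86 to -0.11, adjusted p = 0.0512), which crossed the threshold without control 1 (-0.63) or without Tsc2 KO 3, where the adjusted p was as low as 0.0256. It was also called by DESeq2 (adjusted p = 0.0397), by edgeR without the filter (0.0418) and by limma on log2(FPKM + 0.1) (0.0486). In the KspCre cohort Mitf read 3.35, 2.46 and 3.78 FPKM in controls, 3.17, 3.03 and 3.10 in Tsc2 KO, 2.42, 3.79 and 3.06 in Tfeb KO and 3.06, 2.73 and 2.59 in DKO. All 4 groups overlapped, and Tsc2 KO against control gave -0.05 (interval -0.44 to 0.35). In the drug cohort Mitf read 3.36, 3.77 and 4.87 FPKM in vehicle controls, 2.93, 3.84 and 2.77 in vehicle Tsc2 KO and 2.66, 2.46 and 3.31 in vehicle DKO. DKO libraries were below the controls (log2 fold change -0.51, interval -0.85 to -0.16, adjusted p = 0.0726), and Tsc2 KO overlapped with both groups. Of 9 pigment cell genes, among them Tyr, which Mitf drives, and Sox10, an activator of Mitf, 8 were below 1 FPKM in every library, and Tyrp1 was at 0 in every library of the 3 cohorts. The 9 summed to 0.386 to 0.913 FPKM in CaggCreERT2 controls and 1.23 to 2.1 in Tsc2 KO. In the KspCre cohort these ranges were 0.661 to 1.11 and 0.765 to 1.82 FPKM. For the vehicle groups they were 0.469 to 0.678 and 1.17 to 2.41 FPKM. Only 2 of the 9 were tested, and 1 of these fell in the CaggCreERT2 cohort and 1 in the vehicle groups, where 13.4% and 18.9% of all genes fell.

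Tfec, a member with restricted expression that is known from macrophages, was higher after Tsc2 deletion in the whole-body cohort. The CaggCreERT2 controls read 2.99, 2.72 and 2.18 FPKM, the Tsc2 KO libraries 4.52, 5.38 and 4.33 FPKM, the Tfeb KO libraries 2.83, 1.99 and 2.80 FPKM and the DKO libraries 5.25, 5.33 and 6.05 FPKM. The groups with deleted Tsc2 lay above the others without overlap, and DKO overlapped with Tsc2 KO. Tfec rose 1.89-fold in Tsc2 KO (log2 fold change 0.92, SE 0.16, adjusted p = 0.00149) and 2.17-fold in DKO (log2 fold change 1.12, SE 0.17, adjusted p = 0.00121) against control. Both calls held whichever library was left out (adjusted p at or below 0.00939) and with sex as a covariate (0.95 with an adjusted p of 0.0077, and 1.13 with 0.00299). They also held without the 2 libraries named in conflict (0.91 with an adjusted p of 0.00369, and 1.15 with 0.00655). Under the count-table names both were lost (0.92 with an adjusted p of 0.0817, and 0.89 with 0.474). Those names place a library with intact Tsc2 levels in DKO, but they rename no library of Tsc2 KO or control. The cause of the losses was not tested. Among males Tfec read 5.38 FPKM in the single Tsc2 KO library and 2.18 to 2.99 FPKM in controls. DKO against Tsc2 KO gave 0.20 (interval -0.15 to 0.55, adjusted p = 0.459), and Tfeb KO against control gave -0.02 (interval -0.38 to 0.34).

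In the KspCre cohort Tfec read 2.30, 1.88 and 2.25 FPKM in controls, 3.12, 1.82 and 3.75 in Tsc2 KO, 3.02, 2.80 and 2.57 in Tfeb KO and 1.75, 2.59 and 2.40 in DKO. Tsc2 KO libraries held both a low and a high value and overlapped with controls (log2 fold change 0.43, interval -0.09 to 0.96, adjusted p = 0.277). The change was 0.68 with an adjusted p of 0.0562 without Tsc2 KO 2, and 0.20 with 0.689 without Tsc2 KO 3. In the drug cohort it read 1.66, 1.87 and 2.10 FPKM in vehicle controls, 1.05, 1.15 and 2.21 in vehicle Tsc2 KO and 2.72, 1.45 and 2.01 in vehicle DKO. Of the 4 libraries with adrenal transcripts, Tsc2 KO 1 and 2 and DKO 2 had the 3 lowest values of the vehicle groups and DKO 1 the highest. Tsc2 KO against control gave -0.35 (interval -0.91 to 0.21, adjusted p = 0.309), -0.76 with an adjusted p of 0.0227 without Tsc2 KO 3, and 0.22 without the 4 libraries with adrenal transcripts. The rise of Tfec in the CaggCreERT2 cohort was not compared with the KspCre cohorts by a test, since the tables were normalized separately.

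**Figure D2:**
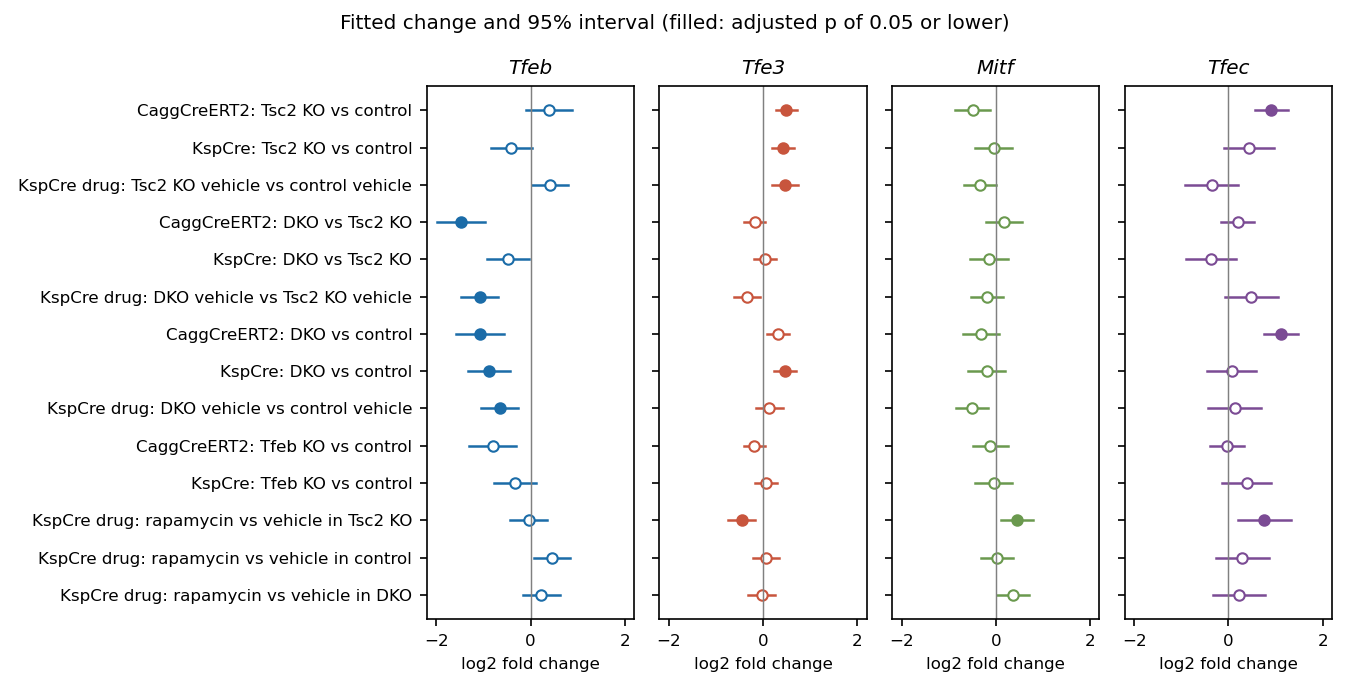
Log2 fold changes of the 4 members, with 95% confidence intervals, for the comparisons of each cohort, where a filled point marks an adjusted p of 0.05 or lower. The points of Tfe3 lie at 0.49, 0.43 and 0.47 for Tsc2 KO against control in the 3 cohorts, and those of Tfeb lie below 0 in each comparison of DKO with another group.

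The members that were called were counted beside the share of all genes called in the same comparison. For Tsc2 KO against control 2 of 4 members were called in the CaggCreERT2 cohort, where 29.0% of 16348 genes tested were called. In KspCre mice 1 of 4 was called, against 13.8% of 16631 genes, and in the vehicle groups of the drug cohort 1 of 4, against 38.3% of 17027 genes. For DKO against Tsc2 KO 1 of 4 members was called in the CaggCreERT2 cohort (9.92% of all genes) and 1 of 4 in the vehicle groups (22.0% of all genes), in each case Tfeb, which the design removes. For KspCre mice that comparison called 0 of 4 members by edgeR and 0 by DESeq2, with 1 at an unadjusted p under 0.05, and 0.144% of all genes. DKO against control called 2 of 4 in the CaggCreERT2 cohort (10.2% of all genes), 2 of 4 in the KspCre cohort (3.10%) and 1 of 4 in the vehicle groups (6.01%). Tfeb, which the design removes, was among the called members each time. The other called members were Tfec in the CaggCreERT2 cohort and Tfe3 in the KspCre cohort. Tfeb KO against control called 0 of 4 members by edgeR and by DESeq2 in both cohorts, with 1 and 0 at an unadjusted p under 0.05, and 0.0184% and 0.00% of all genes. The study's own criterion also asks for FPKM values of at least 5, read here as a mean of at least 5 in a group compared. Under it 1, 0 and 0 members were called for Tsc2 KO against control in the CaggCreERT2, KspCre and vehicle comparisons.

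Whether deletion of Tfeb had a different effect with and without Tsc2 was tested as an interaction. No member passed by edgeR or DESeq2, with 0 of 4 at an unadjusted p under 0.05 in the CaggCreERT2 cohort (1.40% of all genes called) and 1 of 4 in the KspCre cohort (0.00% called). That member was Tfec, with a difference of -0.75 (interval -1.50 to -0.01, adjusted p = 0.506). For Tfeb itself the difference was -0.67 (interval -1.38 to 0.04) in the CaggCreERT2 cohort and -0.14 (interval -0.77 to 0.48) in the KspCre cohort. In the CaggCreERT2 cohort the arm with intact Tsc2 set 3 female Tfeb KO libraries against 3 male controls. Sex and genotype cannot be told apart in that arm.

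The composition of the family was compared as the share of each member in the summed FPKM of the 4. In the CaggCreERT2 cohort the share of Tfeb was 35.2% ± 8.36 (SD, n = 3) in controls and 36.8% ± 2.96 in Tsc2 KO, and it was 25.5% ± 3.82 in Tfeb KO and 16.7% ± 4.04 in DKO. The share of Tfec was 15.8% ± 3.68 in controls and 33.8% ± 3.45 in DKO, where Tfec was the highest of the 4 members. In KspCre mice Tfeb made up 42.2% ± 2.29 of the sum in controls and 26.2% ± 4.65 in DKO, while Tfe3 made up 20.8% ± 1.97 and 33.2% ± 1.51. In the vehicle groups the share of Tfe3 was 23.9% ± 0.562 in controls, 29.7% ± 1.15 in Tsc2 KO and 31.7% ± 3.41 in DKO. The summed FPKM was 16.8 ± 1.35 in CaggCreERT2 controls, 20.5 ± 0.57 in Tsc2 KO, 13.2 ± 0.281 in Tfeb KO and 16.4 ± 0.553 in DKO, and in the KspCre cohort it was 14.4 ± 0.914, 14.6 ± 0.373, 13.8 ± 0.801 and 12.4 ± 0.694. In the vehicle groups it was 13.5 ± 1.48 in controls, 15 ± 0.639 in Tsc2 KO and 11.2 ± 0.972 in DKO. These shares are a description without a test, and an FPKM share counts transcripts and not protein.

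**Figure D3:**
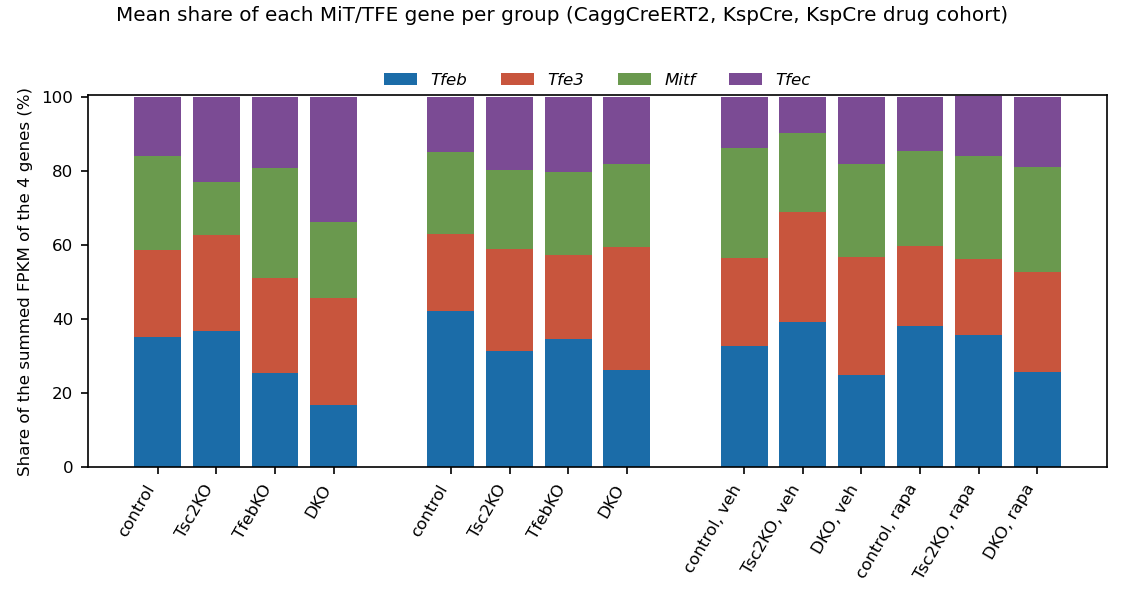
Share of each of the 4 members in their summed FPKM (percent), as stacked bars of the group means in the 14 groups. In CaggCreERT2 mice Tfeb goes from 35.2% in controls to 16.7% in DKO, and Tfec from 15.8% to 33.8%.

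Rapamycin was examined in the drug cohort, where the question was how its 11 injections moved the family in each genotype. In Tsc2 KO mice given rapamycin Tfe3 read 3.58, 2.56 and 3.57 FPKM, below the 4.18 to 4.74 FPKM of the vehicle mice. Tfe3 fell in these mice (log2 fold change -0.46, SE 0.13, adjusted p = 0.0158), a call lost without vehicle 3 or rapamycin 2 (adjusted p up to 0.0736). Mitf read 4.00, 4.88 and 4.15 FPKM with rapamycin, above the 2.77 to 3.84 FPKM of the vehicle mice, and rose by 0.45 (SE 0.16, adjusted p = 0.0458). Tfec read 1.96, 2.78 and 2.73 FPKM with rapamycin and overlapped with the vehicle range of 1.05 to 2.21 FPKM, and rose by 0.77 (SE 0.26, adjusted p = 0.0385). The calls of Mitf and Tfec were each lost in 4 of 6 fits that left out 1 library, with an adjusted p of up to 0.178 for Mitf (lost without vehicle 1 or 3 or rapamycin 2 or 3) and up to 0.159 for Tfec (lost without vehicle 1 or 2 or rapamycin 2 or 3). Without vehicle 3 the change of Tfec was 1.17. Tfeb read 6.50, 3.97 and 6.62 FPKM with rapamycin, on both sides of the vehicle libraries (log2 fold change -0.04, interval -0.43 to 0.34, adjusted p = 0.885). In all 3 of 4 members were called in this comparison, against 29.4% of all genes, and under the FPKM criterion of the study 0. Leaving out the 4 libraries with adrenal transcripts, 2 of which are vehicle Tsc2 KO, left 1 vehicle library in this comparison. Tfe3 was then -0.54, Mitf 0.66 and Tfec 0.18. The spread came from the other groups of the cohort, so these values cannot show whether a call held.

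In controls given rapamycin Tfeb read 6.66, 7.0 and 4.47 FPKM, Tfe3 3.50, 3.07 and 3.51 FPKM, Mitf 4.16, 4.31 and 3.66 FPKM and Tfec 2.26, 2.47 and 2.19 FPKM. Tfeb was above the vehicle range in 2 of these libraries (log2 fold change 0.46, interval 0.07 to 0.84, adjusted p = 0.396). By edgeR and by DESeq2 0 of 4 members were called, with 1 at an unadjusted p under 0.05, and 0.0294% of all genes. In DKO mice given rapamycin Tfeb read 3.27, 3.29 and 3.26 FPKM, Tfe3 3.11, 3.24 and 3.98 FPKM, Mitf 3.51, 3.46 and 3.89 FPKM and Tfec 2.25, 2.64 and 2.31 FPKM. Mitf and Tfeb lay above the vehicle DKO libraries without overlap, by 0.37 (interval 0.02 to 0.71, adjusted p = 0.204) and 0.23 (interval -0.16 to 0.62, adjusted p = 0.518). Here too 0 of 4 members were called by edgeR and by DESeq2, with 1 at an unadjusted p under 0.05, and 5.57% of all genes.

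The genotypes were also compared under rapamycin. Tfe3 in Tsc2 KO differed from control by -0.05 (interval -0.33 to 0.23, adjusted p = 0.9). Under vehicle the difference was 0.47 (interval 0.19 to 0.75), and these intervals overlap. That comparison called 0 of 4 members by edgeR and by DESeq2, with 0 at an unadjusted p under 0.05, and 0.634% of all genes. DKO against Tsc2 KO under rapamycin called 0 of 4 by edgeR, with 1 at an unadjusted p under 0.05, and 0.305% of all genes. That member was Tfeb (log2 fold change -0.80, interval -1.19 to -0.41, adjusted p = 0.0883), which DESeq2 called, as did edgeR without rapamycin Tsc2 KO 2 (-1.0 with an adjusted p of 0.0198). Tested as an interaction, the response of Tfe3 to rapamycin differed between Tsc2 KO and control by -0.52 (interval -0.92 to -0.13, adjusted p = 0.0578), short of the threshold by edgeR and past it without rapamycin Tsc2 KO 1 or 3 (adjusted p as low as 0.0422), with the replicate block (0.0277) and by DESeq2 (0.0444). In that test 0 of 4 members were called by edgeR and 1 by DESeq2, against 20.8% of all genes. The difference in response between DKO and Tsc2 KO called 0 of 4 by either tool, with 1 at an unadjusted p under 0.05 (Tfe3, 0.42, interval 0.03 to 0.82, adjusted p = 0.191), against 6.95% of all genes.

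**Figure D4:**
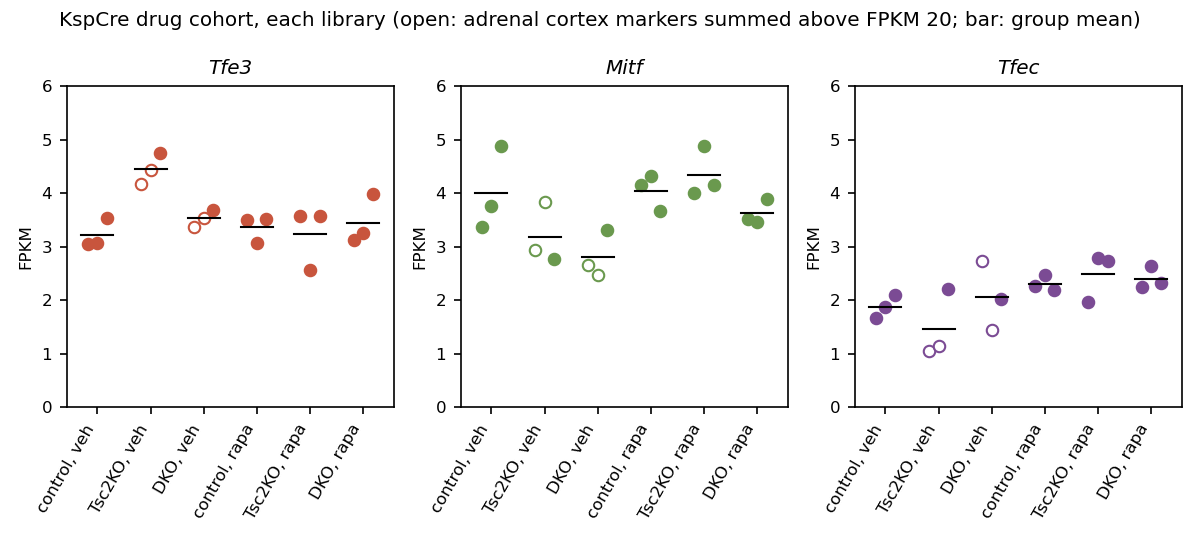
FPKM of Tfe3, Mitf and Tfec in the 18 libraries of the drug cohort, by genotype and treatment (veh, vehicle; rapa, rapamycin), with lines for group means and open symbols for the 4 libraries whose adrenal cortex markers sum to more than 20 FPKM. Tfe3 of Tsc2 KO mice lies at 4.18 to 4.74 FPKM with vehicle and at 2.56 to 3.58 FPKM with rapamycin.

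Markers of other cells were read in the same comparisons, and counts of called markers stand beside these shares of all genes. In Tsc2 KO 15.6% rose and 13.4% fell in the CaggCreERT2 cohort. The shares were 7.64% and 6.21% in the KspCre cohort and 19.4% and 18.9% in the vehicle groups. Rapamycin in Tsc2 KO raised 15.4% and lowered 14.0%. DKO against control had 6.85% higher and 3.35% lower in the CaggCreERT2 cohort, and 2.27% and 0.830% in the KspCre cohort. Proximal tubule markers, 8 genes, summed to 2260 to 2570 FPKM in CaggCreERT2 controls and 784 to 1370 in Tsc2 KO, to 2200 to 2680 and 925 to 1660 FPKM in the KspCre cohort, and to 2160 to 2510 and 489 to 755 FPKM in the vehicle groups. Of the 8, 6, 5 and 6 fell, and in Tsc2 KO mice given rapamycin 7 rose to a sum of 2000 to 2360 FPKM. Macrophage markers, 15 genes, summed to 95.8 to 124 FPKM in CaggCreERT2 controls and 139 to 190 in Tsc2 KO, with 5 that rose, and to 58.5 to 84.2 and 103 to 170 FPKM in the KspCre cohort, with 0 that rose by edgeR and 1 at an unadjusted p under 0.05. In the vehicle groups they summed to 46.0 to 62.7 FPKM in controls and 96.4 to 194 in Tsc2 KO, with 11 that rose and 1 that fell, and rapamycin brought Tsc2 KO to 45.6 to 95.2 FPKM, with 6 that fell. In CaggCreERT2 DKO, where Tfec was highest, macrophage markers summed to 104 to 156 FPKM, with 0 called against control by edgeR and 3 at an unadjusted p under 0.05, 2 higher and 1 lower. The KspCre DKO 1 library stood apart at 735 FPKM. Mast cell markers, 7 genes, summed to 6.22 to 6.59 FPKM in CaggCreERT2 controls and 5.01 to 5.10 in Tsc2 KO, to 3.76 to 5.94 and 7.21 to 14.1 FPKM in the KspCre cohort, and to 4.78 to 5.04 and 10.7 to 18.9 FPKM in the vehicle groups. Kit, which other cells also express, was the 1 called gene of the list in the KspCre and vehicle comparisons (1.41 and 2.02 on the log2 scale). Within each cohort 5 of the 7 were below 1 FPKM in every library, but not the same 5. Tpsb2 was among them in the CaggCreERT2 cohort, and Ms4a2 in both KspCre cohorts. Thick limb, distal tubule and collecting duct markers, 11 genes, summed to 2370 to 2840 FPKM in CaggCreERT2 controls and 1360 to 1700 in Tsc2 KO, with 8 that fell, to 2300 to 2900 and 2640 to 2840 FPKM in the KspCre cohort, with 1 that rose and 5 that fell, and to 1970 to 2550 and 1640 to 2690 FPKM in the vehicle groups, with 1 that rose and 5 that fell. In KspCre DKO they summed to 3090 to 4630 FPKM, with 1 higher than in control and 0 lower, and rapamycin raised 6 and lowered 1 in Tsc2 KO. Podocyte and endothelial markers, 7 genes, summed to 200 to 223 FPKM in CaggCreERT2 controls and 75.3 to 117 in Tsc2 KO, with 3 that fell, to 131 to 167 and 53.3 to 75.4 FPKM in the KspCre cohort, with 6 that fell, and to 128 to 156 and 46.2 to 52 FPKM in the vehicle groups, with 5 that fell. Fibroblast markers, 7 genes, summed to 119 to 227 FPKM in CaggCreERT2 controls and 109 to 303 in Tsc2 KO, with 0 called by edgeR and 0 at an unadjusted p under 0.05, and to 31.6 to 48.4 and 48.8 to 95 FPKM in the KspCre cohort, with 0 called and 3 at an unadjusted p under 0.05, 2 higher and 1 lower. In the vehicle groups they summed to 19.1 to 43.1 FPKM in controls and 27.8 to 83.7 in Tsc2 KO, with 3 that rose and 0 that fell or were lower at an unadjusted p under 0.05. T and B cell markers, 9 genes, summed to 3.52 to 5.21 and 3.08 to 5.29 FPKM in the CaggCreERT2 cohort, with 1 that rose and 1 that fell, to 1.54 to 3.76 and 2.49 to 3.97 FPKM in the KspCre cohort, with 0 called and 0 at an unadjusted p under 0.05, and to 1.57 to 2.74 and 0.762 to 3.08 FPKM in the vehicle groups, with 1 that rose. KspCre DKO 1 stood apart in these markers too, at 31.8 FPKM against 4.06 and 4.98 in the other DKO libraries. The part of these cells in the levels of Tfe3, Mitf and Tfec was not tested, and in bulk tissue fewer cells of a type and less RNA per cell cannot be told apart.

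Around the family, 38 genes that act on MiT/TFE proteins were examined: mTORC1 subunits, the TSC complex, Rag GTPases with their Lamtor anchor, the folliculin arm, phosphatase subunits, 14-3-3 proteins and the exporter Xpo1. In Tsc2 KO 12 rose and 4 fell in the CaggCreERT2 cohort, where 15.6% of all genes rose and 13.4% fell, and the median log2 fold change was 0.16 against 0.00 over all genes. Among KspCre mice 7 rose and 2 fell (7.64% and 6.21% of all genes, median 0.05), and in the vehicle groups 10 rose and 6 fell (19.4% and 18.9%, median 0.15). The number that fell was 10 without vehicle control 1, and 3 without the 4 libraries with adrenal transcripts, which leaves 1 vehicle Tsc2 KO library. The list includes Tsc2, which the design removes. Rragd, a Rag GTPase of the folliculin-dependent arm that recruits TFEB to lysosomes, rose most in each cohort: it read 14.6, 15.6 and 13.6 FPKM in CaggCreERT2 controls and 37.5, 28.4 and 28.1 FPKM in Tsc2 KO (log2 fold change 1.16, SE 0.14), and it rose by 1.51 (SE 0.18) in the KspCre cohort and by 1.45 (SE 0.20) in the vehicle groups. Its partner Rragc rose by 1.09 (SE 0.10), 0.69 (SE 0.11) and 0.83 (SE 0.14), and the 14-3-3 gene Ywhah by 0.83 (SE 0.11), 0.72 (SE 0.13) and 1.05 (SE 0.11). The kinase gene Akt1 rose by 0.58 in the CaggCreERT2 cohort and by 0.93 in the vehicle groups, and gave 0.29 in the KspCre cohort (adjusted p = 0.167). Lamtor5 fell by 0.69 in CaggCreERT2 Tsc2 KO and by 0.89 in the vehicle groups, the mTOR inhibitor Deptor fell by 0.57, 0.92 and 0.74 in the 3 cohorts, and Mtor fell by 0.80 in the vehicle groups.

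In DKO against Tsc2 KO 1 regulator rose and 3 fell in the CaggCreERT2 cohort (5.34% and 4.58% of all genes, median -0.12). Lamtor5 rose by 0.45, whereas Rragc fell by 0.57, Akt1 by 0.47 and Lamtor1, another part of the anchor, by 0.40. Without Tsc2 KO 1 the number that fell was 1, and without Tsc2 KO 3 it was 5. The single rise was lost without Tsc2 KO 1 or 2 or DKO 2 or 3. Among KspCre mice none of the 38 was called by edgeR and 1 by DESeq2, with 10 at an unadjusted p under 0.05, 1 higher and 9 lower (0.0601% of all genes rose and 0.0842% fell, median -0.06). In the vehicle groups 3 rose and 5 fell (11.9% and 10.0% of all genes, median -0.05), among them Lamtor5, Tsc2 and Deptor, which rose by 0.84, 0.58 and 0.57, and Rragd, Rragc and Ywhah, which fell by 0.73, 0.68 and 0.60. The number that fell was 3 without Tsc2 KO 2 or DKO 3. Without the 4 libraries with adrenal transcripts, a comparison of 1 library with 1, 1 regulator rose and 0 fell (median -0.03), where 2.42% of all genes were called. Rapamycin in Tsc2 KO moved 5 up and 9 down (15.4% and 14.0% of all genes, median -0.12). Mtor, Lamtor5 and Deptor rose by 0.79, 0.72 and 0.63, and Rragd, Ywhah and Akt1 fell by 0.82, 0.80 and 0.79. Without those 4 libraries, which leaves 1 vehicle library, 3 rose and 5 fell (median -0.04). With all libraries the rises and falls named here passed the threshold by edgeR.

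A list of 45 genes known as MiT/TFE targets, with 6 that are also on the regulator list, was read in the same way. Both lists were chosen with earlier results of these data known, so their counts beside the shares of all genes are a description. Its genes are named for a cohort where they were among the largest changes, so other cohorts may hold changes of the same genes. In Tsc2 KO 32 rose and 0 fell in the CaggCreERT2 cohort, where 15.6% and 13.4% of all genes did, the median log2 fold change was 0.66, 2 were lower at an unadjusted p under 0.05, and DESeq2 gave 33 and 0. Under the sample names of the count table, the number that rose was 20. Among KspCre mice 25 rose and 0 fell (7.64% and 6.21% of all genes, median 0.60, 0 lower at an unadjusted p under 0.05, 30 and 0 by DESeq2), and in the vehicle groups 27 rose and 2 fell (19.4% and 18.9% of all genes, median 0.61). The number that fell in the vehicle groups was 1 without control 2 or 3 or Tsc2 KO 1 or 2, and without the 4 libraries with adrenal transcripts, which leaves 1 vehicle Tsc2 KO library, 21 rose and 0 fell (18.5% of all genes were called, median 0.46). The medians over all genes lay between -0.02 and 0.02. Gpnmb, a lysosomal membrane glycoprotein gene, read 0.0358, 0.0235 and 0.0349 FPKM in CaggCreERT2 controls and 60.2, 29.1 and 14.8 FPKM in Tsc2 KO. It read 0.0171 to 0.0393 FPKM in KspCre controls and 4.50 to 8.82 in Tsc2 KO, and 0.0284 to 0.188 FPKM in vehicle controls and 17.0 to 18.7 in vehicle Tsc2 KO. Hexa, a subunit of lysosomal hexosaminidase, rose by 2.46 (SE 0.14), 2.33 (SE 0.21) and 2.34 (SE 0.23) in the 3 cohorts. Psap, the precursor of the saposins, rose by 2.18 in the CaggCreERT2 cohort, the transcription factor gene Bhlhe41 by 2.51 in the KspCre cohort and the proton pump subunit Atp6v0d2 by 2.58 in the vehicle groups. Acp5, an acid phosphatase, and Fnip2, a folliculin partner, fell by 0.73 and 0.61 in the vehicle groups.

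DKO against Tsc2 KO gave 3 targets that rose and 10 that fell in the CaggCreERT2 cohort (5.34% and 4.58% of all genes, median -0.23). The number that rose was 1 without Tsc2 KO 1, DKO 1 or DKO 3. The number that fell was 4 without DKO 3, 6 without Tsc2 KO 1 or 2 or DKO 1 or 2, and 13 without Tsc2 KO 3, and the names of the count table gave 3. Gpnmb read 3.96, 3.67 and 1.53 FPKM in CaggCreERT2 DKO, below each Tsc2 KO library. The protease gene Ctsk fell by 1.18 and Atp6v0d2 by 0.98, whereas Acp5, the galactosidase gene Glb1 and the autophagy gene Wipi1 rose by 1.23, 0.65 and 0.43. In the KspCre cohort 0 targets passed by edgeR and 9 fell by DESeq2, with 25 lower at an unadjusted p under 0.05 (0.0601% and 0.0842% of all genes rose and fell, median -0.33). In the vehicle groups 2 rose, Acp5 by 0.94 and the protease gene Ctsf by 0.60, and 16 fell (11.9% and 10.0% of all genes, median -0.25), among them Gpnmb, at 0.219 to 1.19 FPKM in DKO, Bhlhe41 by 1.41 and Ctsk by 1.35. The number that rose was 1 without Tsc2 KO 2, DKO 1 or DKO 3 and 3 without DKO 2, and the number that fell was 9 without DKO 3. After the 4 libraries with adrenal transcripts were left out, 1 DKO library was compared with 1 Tsc2 KO library, where 0 targets passed, 31 of 45 were lower, the median was -0.20 and 2.42% of all genes were called, so adrenal transcripts and fewer libraries cannot be told apart. Rapamycin in Tsc2 KO lowered 22 targets and raised 0 (14.0% and 15.4% of all genes fell and rose), with 4 higher at an unadjusted p under 0.05 and 23 and 0 by DESeq2 (median -0.36), and 14 fell without those 4 libraries (median -0.41, with 1 vehicle library). Gpnmb read 0.102, 0.164 and 0.241 FPKM after rapamycin, Bhlhe41 fell by 2.57, and Ctsd, the cathepsin D gene, fell by 1.71. In DKO mice rapamycin lowered 17 targets and raised 0, with 0 higher at an unadjusted p under 0.05 and 21 lower by DESeq2 (3.47% of all genes fell and 2.10% rose, median -0.43). This number was 24 without vehicle DKO 2, 8 without vehicle DKO 1, 9 without vehicle DKO 3, 7 without rapamycin DKO 2, 6 without rapamycin DKO 3, and 5 without the 4 libraries with adrenal transcripts, which leaves 1 vehicle DKO library. Neither Tfeb KO against control nor rapamycin in controls called a target by edgeR or DESeq2. In CaggCreERT2 Tfeb KO, KspCre Tfeb KO and rapamycin controls 0.0184%, 0.00% and 0.0294% of all genes were called. With so few calls, 0 called targets do not show that the list was unchanged. By edgeR 1, 1 and 0 targets were higher and 3, 2 and 9 lower at an unadjusted p under 0.05. The medians were -0.13, -0.10 and -0.18, with 9, 15 and 8 of 45 targets above 0.

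Against control, 29 targets were higher and 0 lower in CaggCreERT2 DKO (6.85% and 3.35% of all genes, median 0.52, 3 lower at an unadjusted p under 0.05), and 23 were higher without the 2 libraries named in conflict. Under the names of the count table, which Tsc2 goes against, 0 were higher. In KspCre DKO 9 were higher and 0 lower (2.27% and 0.830% of all genes, median 0.24, 0 lower at an unadjusted p under 0.05). That count was 5 when these groups were fitted alone or without DKO 3, and 4 without control 1. In vehicle DKO 11 were higher and 0 lower (3.96% and 2.06% of all genes, median 0.29, 3 lower at an unadjusted p under 0.05). It was 4 when these groups were fitted alone and also without the libraries with adrenal transcripts, 7 without control 3 and 6 without DKO 1.

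**Figure D5:**
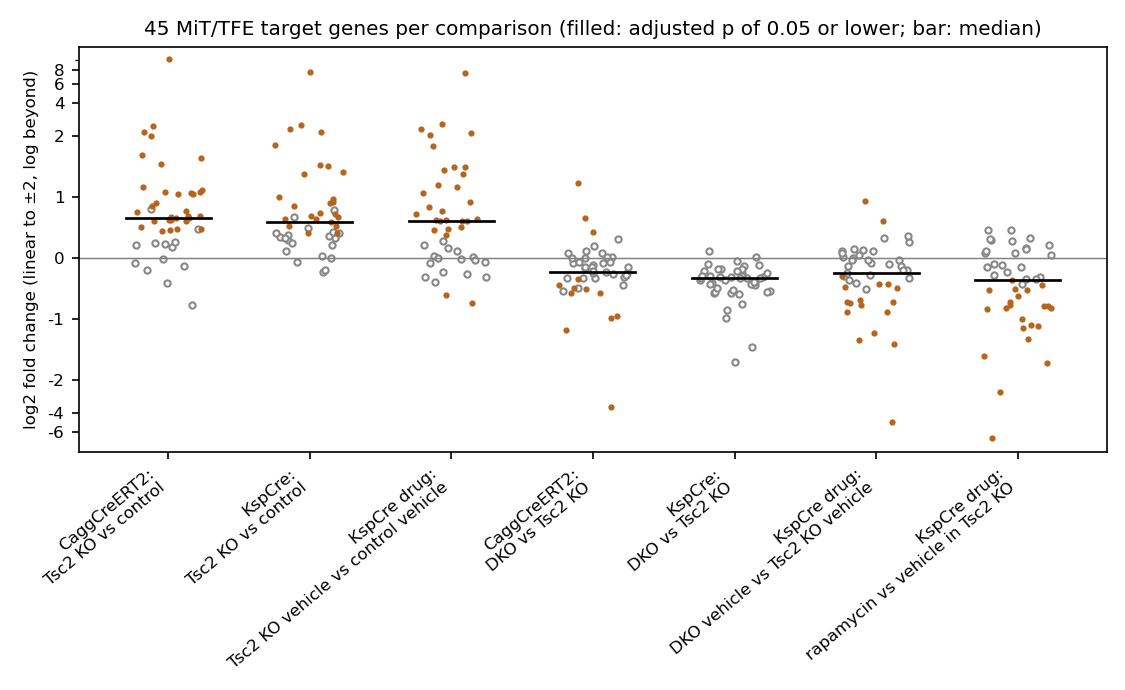
Log2 fold changes of the 45 target genes, 1 point per gene, in the comparisons of Tsc2 KO, DKO and rapamycin, on an axis that is linear to 2 in both directions and logarithmic beyond, with a line at the median and filled points for an adjusted p of 0.05 or lower. The medians lie at 0.66, 0.60 and 0.61 for Tsc2 KO against control and at -0.23, -0.33 and -0.25 for DKO against Tsc2 KO.

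Of the 45 targets 36 had promoter windows, 42 in all. CACGTG was present in 40.5% of these windows, TCACGTG in 38.1%, CATGTG in 19.0% and TCATGTG in 14.3%, beside the shares over all windows given with the member sequences. The targets were chosen as known ones, some of them through such motifs.

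The genes most like each member in pattern were found by Pearson correlation of log2 CPM (counts scaled to library size), centred on the cohort mean, over the 42 libraries and among 11713 protein-coding genes. These points share groups and cohorts, and the correlations are a description. Within the KspCre cohort they were lowest for Sult1c2 with Tfeb (0.30) and Trdmt1 with Mitf (0.31), which reached 0.89 and 0.85 in the CaggCreERT2 cohort and 0.80 each in the drug cohort. For Tfe3 they were Rab11fip5 (r = 0.89), a Rab11 effector of endosome recycling, Tes (0.87) and Shtn1 (0.87). Rab11fip5 read 21.9 to 22.5 FPKM in CaggCreERT2 controls and 38.7 to 53.2 FPKM in Tsc2 KO, and 33.2 to 35 FPKM in DKO, in the same order as Tfe3. For Tfec they were Gpr137b (0.83), a lysosomal membrane protein, Crot (0.77), a peroxisomal acyltransferase, and Dnajc22 (0.77). For Tfeb they were Sult1c2 (0.76), a sulfotransferase, Mcrip1 (0.72) and Trip6 (0.68), and for Mitf Trdmt1 (0.71), an RNA methyltransferase, Zfp952 (0.68) and Dapk1 (0.68). Between members r was lower in size: -0.45 for Mitf with Tfe3, 0.22 for Tfe3 with Tfec, 0.18 for Mitf with Tfeb, 0.07 for Tfe3 with Tfeb, -0.09 for Mitf with Tfec and -0.18 for Tfeb with Tfec.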

How the data were processed

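Whole-kidney poly-A RNA was sequenced from non-directional libraries, so reads of overlapping antisense genes cannot be told apart. For Mitf the annotation holds a pseudogene on the opposite strand that shares 0 exonic bases. The authors deposited raw read counts per gene and FPKM values per library. The submitters' processing notes name STAR 2.6.1d, HISAT2 2.0.5, featureCounts 1.5.0-p3, DESeq2 1.20.0 and mm10, without roles. Deposited counts and FPKM columns of the CaggCreERT2 cohort were joined by proportionality (largest SD of the log ratio 4.08e-10 for joined columns, smallest 0.256 for others), and names were taken from the FPKM table.

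Counts were fitted per cohort with all its groups in edgeR 4.0.16 (R 4.3.3): filterByExpr, TMM normalization, quasi-likelihood F test and Benjamini-Hochberg adjustment over all genes tested, with a call at an adjusted p of 0.05 or lower. Intervals are 95%. Each replicate is a separate mouse. Levels are deposited FPKM, and the software that computed them is not given in the sources used here. The library size that these FPKM imply was 88.2% of the counts in CaggCreERT2 DKO 3 and 119.3% in vehicle Tsc2 KO 2, so it was not the count total. The fit was tested on simulated data.

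The members and the gene lists were chosen with earlier results of these data known. Named genes are all members, Tsc2, up to 3 called genes with the largest rise and fall per list and main comparison, and the 3 genes most correlated with each member among protein-coding genes with a mean FPKM of at least 1 in a group of each cohort. Alternatives were DESeq2 1.42.0, RLE normalization, no filter, only the groups compared, limma 3.58.1 on log2(FPKM + 1) and log2(FPKM + 0.1), the replicate number as a block, sex as a covariate, the count-table names, the study's FPKM minimum of 5 and each library left out. Promoters are RefSeq windows on GRCm38.p6. Python 3.11.15 with matplotlib 3.10.9 drew the figures. Columns of the study's own comparisons were not used. No protein sequences were analysed here.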

Additional observations from a re-analysis of the deposited data

Results flagged for a closer look

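No difference between groups in the response to the same change passed adjustment for a family member by edgeR as fitted in the report. The replicate block and DESeq2 each called 1, Tfe3, for the response to rapamycin in Tsc2 KO minus that in control. Single libraries far from their group were not searched for by a rule, since each group holds 3. Some that stood apart are described in the report. Among the listed regulators and targets that the report names, the change from Tfeb deletion differed with the state of Tsc2 for Glb1 in the CaggCreERT2 cohort, by 0.86 on the log2 scale (edgeR, adjusted p = 0.0247). There the Tfeb KO libraries were 3 females and the controls 3 males, so sex cannot be told apart from Tfeb deletion with intact Tsc2. In the drug cohort the response to rapamycin differed between Tsc2 KO and control for Akt1 by -0.99, Ywhah by -0.94, Ctsd by -1.75 and Gpnmb by -7.50, and for Deptor by 0.65, Lamtor5 by 0.80 and Mtor by 1.06. It differed between DKO and Tsc2 KO for Lamtor5 by -0.78 and for Ywhah by 0.52. These adjusted p-values run from 0.00051 for Ywhah between Tsc2 KO and control to 0.0494 for Ywhah between DKO and Tsc2 KO. The vehicle groups behind the rapamycin differences include the libraries with adrenal transcripts, and their part was not tested for these genes.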

How the results depend on the processing

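The 80 member changes gave 680 values under other settings, of which 627 kept direction and side of the threshold, 26 lost the call, 13 gained one and 14 reversed. Of 576 values without 1 library, 495 kept both, 30 lost the call, 11 gained one and 40 reversed. All 54 reversed values belong to changes that were not called, the largest 0.54 in size. The members rested on 116 to 980 counts per library, and counting error and 3 mice per group limit what can be resolved. Dropping 2 libraries with conflicting names, or libraries with adrenal transcripts, was chosen after seeing the data.

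With the names of the count table in the CaggCreERT2 cohort, Tfe3 and Tfec against control in Tsc2 KO were 0.49 and 0.92 and were not called (0 of 4 members). In DKO against control Tfeb was -1.09 and Tfec 0.89 (0 called), DKO against Tsc2 KO gave Tfec -0.03, Tfeb KO against control gave Tfec 0.39, and the interaction gave Tfe3 -0.25 and Tfec -0.41. Without Tfeb KO 1 and 2, Tfec in Tfeb KO was 0.11, the interaction of Tfe3 was -0.15, and Tfe3 in DKO against control was 0.31 and called. Sex as a covariate gave 0.03 for Tfec in Tfeb KO and -0.05 for the interaction of Tfe3.

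Mitf in CaggCreERT2 Tsc2 KO was called at -0.49 by DESeq2, at -0.49 without the filter and at -0.51 by limma on log2(FPKM + 0.1). Without the filter Tfeb in CaggCreERT2 Tfeb KO was called at -0.82 (1 of 4 members), Tfe3 in KspCre Tsc2 KO was 0.44 and not called (0 of 4), and Mitf with rapamycin in Tsc2 KO was 0.45 and not called. In KspCre DKO against control Tfeb lost the call with only the groups compared (-0.88), by limma with a pseudocount of 1 (-0.74) and with the replicate block (-0.89). Tfe3 there lost it with only the groups compared (0.47), without the filter (0.47), by limma with 1 (0.36) or 0.1 (0.45) and with the replicate block (0.47). These settings called 0 members, or 1 without the filter and by limma with 0.1.

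In the drug cohort, fits of only the groups compared called Tfe3 in DKO against Tsc2 KO (-0.36, 2 of 4 members), lost Tfeb in DKO against control (-0.65, 0 called) and lost Tfe3 (-0.43), Mitf (0.48) and Tfec (0.80) with rapamycin in Tsc2 KO (0 called). The limma fits lost Tfeb in DKO against control (-0.51 with 1, -0.64 with 0.1, 0 called). DESeq2 called 2 members in that comparison, 1 in DKO against Tsc2 KO under rapamycin (as did no filter, 1) and 1 in the interaction of rapamycin with Tsc2 deletion. The FPKM minimum left 1 member in CaggCreERT2 Tsc2 KO, 0 in KspCre Tsc2 KO, 1 in KspCre DKO against control, 0 in vehicle Tsc2 KO, 0 in vehicle DKO against control and 0 with rapamycin in Tsc2 KO.

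Without the 4 libraries with adrenal transcripts, Tsc2 KO against control gave Tfe3 0.55 and Tfec 0.22. DKO against Tsc2 KO gave Tfeb -1.12, Mitf 0.26 and Tfec -0.13, and DKO against control gave Tfeb -0.79. Rapamycin in Tsc2 KO gave Tfeb 0.04, Tfe3 -0.54, Mitf 0.66 and Tfec 0.18. The interactions of Tfec were -0.11 with Tsc2 KO against control and 0.07 with DKO against Tsc2 KO. Each of these fits has a group of 1 library, with the spread taken from the other groups. Neither a lost call nor a lower count of listed genes can therefore be read from them. The cause of these shifts was not tested, beyond the fewer libraries fitted.

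Leaving out 1 library in the CaggCreERT2 cohort gave ranges of 0.24 to 0.68 for Tfeb and -0.63 to -0.27 for Mitf in Tsc2 KO, -0.25 to 0.10 for Mitf and -0.14 to 0.13 for Tfec in Tfeb KO, and -0.06 to 0.11 for the interaction of Tfe3. In the KspCre cohort it gave -0.67 to -0.26 for Tfeb, 0.38 to 0.47 for Tfe3, -0.20 to 0.11 for Mitf and 0.20 to 0.68 for Tfec in Tsc2 KO (0 to 2 called), -0.67 to -0.21 for Tfeb in DKO against Tsc2 KO, -0.01 to 0.14 for Tfe3 and -0.21 to 0.10 for Mitf in Tfeb KO, and -1.08 to -0.76 for Tfeb, 0.41 to 0.50 for Tfe3 and -0.05 to 0.22 for Tfec in DKO against control (0 to 1 called). The interactions there were -0.34 to 0.12 for Tfeb, -0.11 to 0.05 for Tfe3 and -0.25 to 0.06 for Mitf. In the drug cohort vehicle Tsc2 KO gave -0.47 to -0.17 for Mitf and -0.76 to -0.16 for Tfec (1 to 2 called). DKO against Tsc2 KO gave 0.23 to 0.90 for Tfec (1 to 2 called), and DKO against control gave -0.77 to -0.60 for Tfeb, -0.64 to -0.35 for Mitf and -0.13 to 0.34 for Tfec (0 to 1 called). Rapamycin gave -0.10 to 0.18 for Mitf in controls, -0.15 to 0.03 for Tfe3 in DKO, and in Tsc2 KO -0.16 to 0.16 for Tfeb, -0.53 to -0.31 for Tfe3, 0.35 to 0.60 for Mitf and 0.57 to 1.17 for Tfec (0 to 3 called). Under rapamycin Tsc2 KO against control gave -0.26 to 0.12 for Tfeb and -0.13 to 0.09 for Tfe3, and DKO against Tsc2 KO gave -1.0 to -0.68 for Tfeb, -0.05 to 0.17 for Tfe3 and -0.20 to 0.03 for Tfec (0 to 1 called). The interaction of rapamycin was -0.60 to -0.38 for Tfe3 in Tsc2 KO against control (0 to 1 called) and -0.23 to 0.05 for Mitf in DKO against Tsc2 KO.

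Replicate numbers did not pair the samples: same-numbered libraries correlated at over 0.1 in 4 of 18, 5 of 18 and 10 of 45 pairs. With the replicate block 2 members were called in vehicle DKO against Tsc2 KO, with Tfe3 at -0.34, 1 in the interaction of rapamycin with Tsc2 deletion, and 0 in KspCre DKO against control.

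Counts of listed genes also moved by over 1.5 times. In CaggCreERT2 Tsc2 KO 20 targets rose with the names of the count table, against 32, and in DKO against Tsc2 KO 3 fell, against 10, and 0 rose, against 3. In DKO against control 0 rose under those names, against 29. Tsc2 goes against those names for the pair of libraries whose genotypes they exchange. In CaggCreERT2 DKO against Tsc2 KO the 1 regulator that rose was lost under 4 settings, and 5 fell by DESeq2 and without the filter, against 3. In the KspCre cohort, DKO against Tsc2 KO gave 9 lower targets by DESeq2, 3 without the filter, 2 by limma with a pseudocount of 1 and 1 with only the groups compared, against 0. Without the 4 libraries with adrenal transcripts, which leaves 1 library in each of those vehicle groups, lower targets numbered 0 in vehicle DKO against Tsc2 KO, against 16, and 14 with rapamycin in Tsc2 KO, against 22. Lower regulators then numbered 3 in vehicle Tsc2 KO, against 6, 0 in vehicle DKO against Tsc2 KO, against 5, and 5 with rapamycin in Tsc2 KO, against 9.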
